A study of Mus musculus with 15 samples.

Results

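The genes described here encode the enzymes of glutathione metabolism and the other antioxidant enzymes of mouse cumulus cells, the granulosa cells that surround the oocyte. They were chosen by gene symbol, as the soluble and membrane glutathione transferases (Gst, Mgst), glutathione peroxidases (Gpx), peroxiredoxins (Prdx), thioredoxins and their reductases (Txn, Txnrd), superoxide dismutases (Sod), metallothioneins Mt1 and Mt2, and a set of single genes (Gss, Gsr, Gclc, Gclm, Cat, Hmox1, Hmox2, Srxn1, Nfe2l2 and Glrx), with the probe of highest mean kept for each gene. This gave 54 of the 15059 named genes of the deposited table, and 53 of them passed the filter on dim probes. Messenger RNA was measured on 15 single-color Agilent arrays, 5 per stage, each from a separate pool of B6CBAF1/J mice. The NC1 stage was cumulus of juveniles, 3 weeks old, in which complexes were unexpanded and the prophase I oocytes could resume meiosis without being able to support development. The C1 stage was unexpanded cumulus as well, taken from adults of 8 weeks with prophase I oocytes of full developmental competence. The C2 stage was expanded cumulus of 8-week-old females that had received pmsg and hCG, flushed from the oviduct around metaphase II oocytes and dispersed with hyaluronidase. NC1 and C1 mice therefore differed in age, and C1 and C2 cells differed in hormone treatment, site and enzyme, so that stage cannot be told apart from these.

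Glutathione is a small thiol made by glutamate-cysteine ligase (catalytic subunit Gclc, modifier subunit Gclm) and glutathione synthetase (Gss), and its oxidized form is recycled by glutathione reductase (Gsr) with NADPH. Glutathione transferases couple it to electrophiles, glutathione peroxidases and peroxiredoxins use thiols to reduce peroxides, and many of these genes are targets of the transcription factor NRF2 (Nfe2l2). Cumulus cells are known to supply the oocyte with cysteine and to take part in keeping its glutathione high.

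Levels are given in log2 intensity, with the median over each array's valid probes set to 0, and a level is compared only within a probe. Each array had between 18366 and 24493 gene probes well above background, of 39429, and no spot was saturated. All 4 slides held arrays of each stage. Of 6 granulosa markers, 5 were lower in C2 than in C1 and Foxl2 was not called. The log2 of their summed intensity ranged from 7.58 to 7.88 in C1 and from 5.33 to 5.69 in C2. Sums of the other marker lists are given in the same way, and the brightest genes weigh most in each. The 5 valid theca and stroma markers were all called lower in C2, where their summed level of 6 genes ranged from -1.04 to -0.47 beside 3.21 to 3.94 in C1 and 3.40 to 5.65 in NC1. Red blood cell markers summed to 6.20 to 8.78 in NC1 and 3.40 to 5.45 in C1 (4 of 5 valid genes called lower in C1), leukocyte markers to -0.02 to 1.13 in NC1, 0.83 to 1.71 in C1 and 2.38 to 3.33 in C2, and oocyte markers to 3.68 to 5.67, 3.70 to 5.35 and -0.57 to 4.11. Of the 5 valid leukocyte markers only 1, Cd52, was called higher in C2 than in C1 (3.01). Lyz1, Csf1r, C1qa and C1qb were not called at that step. Oviduct epithelium markers, of which the keratins Krt8 and Krt18 were called higher and Epcam and Tppp3 lower, summed to 2.85 to 3.57 in C1 and 4.64 to 4.92 in C2, and the defining oviduct gene Ovgp1 was higher in C2 by 2.28 than in C1 (adjusted p = 0.0343, not called) and by 3.32 than in NC1 (adjusted p = 0.00347, called). In such bulk samples fewer cells of a type and less RNA per cell cannot be told apart.

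Over the 3 stages, 38 of the 53 tested members (71.7%) differed at an adjusted p under 0.01 (limma moderated F, Benjamini-Hochberg over all probes), beside 51.6% of the 17323 valid probes. From NC1 to C1, 6 members (11.3%) were called, all of them higher, beside 2.52% of all probes called, 1.75% called higher and 0.768% called lower. The ranges of the NC1 and C1 arrays did not overlap for 10 members (18.9%), beside 5.98% of all probes. From C1 to C2, 33 members (62.3%) were called, 13 higher and 20 lower, beside 47.6% of all probes (25.4% higher and 22.2% lower), and the arrays of 29 members (54.7%) did not overlap, beside 43.9% of all probes. Between NC1 and C2, 37 members were called (17 higher, 20 lower), beside 51.5% of all probes (26.5% higher, 24.9% lower). The median change of the members was 0.11 from NC1 to C1 (-0.03 over all valid probes) and -0.19 from C1 to C2 (0.02 over all valid probes). The split from C1 to C2 depended on the scaling. It was 16 higher and 13 lower with the arrays centred on the median of all gene probes, as in the deposited table, a scale on which the median of the valid probes itself moved by 0.33. Quantile scaling gave 9 higher and 23 lower, and spike-in scaling gave 7 and 17 with the median of the valid probes at -0.13. Each contrast uses the C1 arrays of the other, so the changes are set side by side and their relation is not tested.

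**Figure D1:**
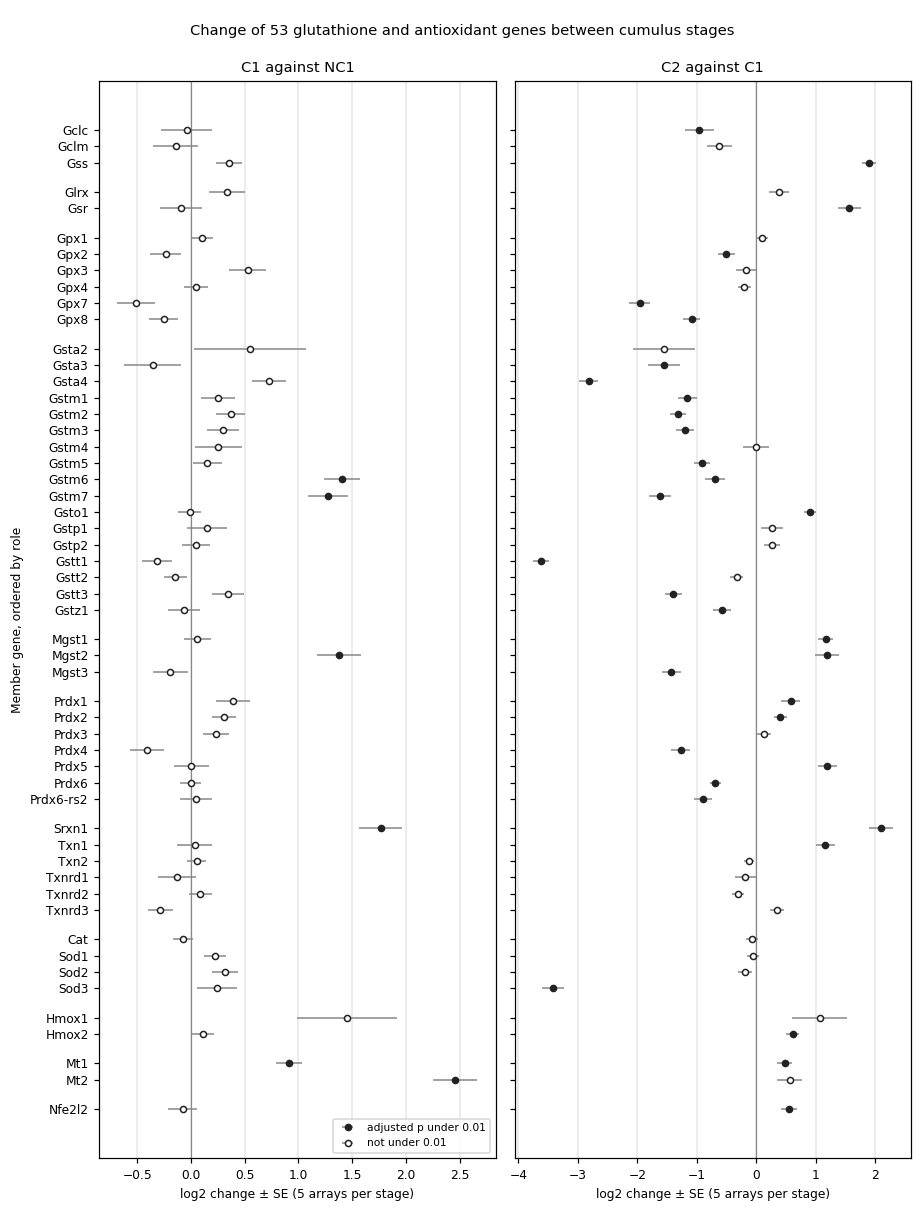
Log2 change (x axis, ± SE, 5 arrays per stage) of the 53 tested members (y axis, ordered by role) from NC1 to C1 on the left and from C1 to C2 on the right, with filled points at an adjusted p under 0.01. The 6 filled points on the left all lie above 0, while those on the right lie on both sides (13 above and 20 below).

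Between juvenile and adult unexpanded cumulus, the increases were in sulfiredoxin, both metallothioneins, 1 membrane transferase and 2 mu-class transferases. Srxn1 encodes sulfiredoxin, which restores overoxidized peroxiredoxins. Its NC1 arrays read -1.40, -1.43, -0.96, -1.30 and -1.63, its C1 arrays 0.78, -0.02, -0.25, 0.89 and 0.70, and its C2 arrays 2.41, 2.46, 2.31, 2.76 and 2.61. No 2 stages overlapped. The gene rose by 1.77 ± 0.20 (SE) from NC1 to C1 (3.40-fold, limma adjusted p = 3.63e-05), and the second step added 2.09 ± 0.20 (4.26-fold, adjusted p = 1.81e-07).

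Mt2 and Mt1 encode metallothioneins, small cysteine-rich proteins that bind zinc and copper and react with oxidants. For Mt2 the 5 NC1 arrays lay between 1.93 and 2.13, the C1 arrays read 4.16, 3.80, 4.92, 5.19 and 4.36, and the C2 arrays 5.35, 4.69, 4.94, 5.24 and 5.02. The NC1 arrays were tightly grouped and far below every other array, and the C1 and C2 arrays overlapped. Mt2 had the largest increase of the members at this step, 2.46 ± 0.21 (5.49-fold, adjusted p = 1.36e-06), and its change of 0.56 ± 0.21 from C1 to C2 was not called (adjusted p = 0.0293). For Mt1 the arrays read 4.44, 4.67, 4.58, 4.64 and 4.60 in NC1, 5.29, 5.17, 5.77, 5.65 and 5.60 in C1 and 6.16, 5.78, 5.95, 6.10 and 5.86 in C2. The stages followed each other without overlap, with increases of 0.91 ± 0.12 (1.88-fold, adjusted p = 0.000192) and 0.47 ± 0.12 (1.39-fold, adjusted p = 0.00306). The call of Mt1 was lost at the first step with the deposited scaling and with spike-in scaling, and at the second without C1 replicate 1, with quantile or spike-in scaling and without the filter on dim probes, with values of 0.80 to 1.06 and 0.32 to 0.78 over all alternatives.

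Mgst2, a membrane protein that couples glutathione to lipid electrophiles and to leukotriene A, read 1.50, 1.89, 1.38, 1.01 and 1.47 in NC1, 3.13, 3.03, 2.89, 2.08 and 3.02 in C1 and 4.06, 4.03, 4.48, 3.79 and 3.71 in C2. Every array of a later stage was above every array of the stage before. It rose by 1.38 ± 0.20 (2.61-fold, adjusted p = 0.000453) and again by 1.18 ± 0.20 (2.27-fold, adjusted p = 9.92e-05). Srxn1, Mgst2 and Mt1 were the 3 members called higher at both steps.

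Gstm6 and Gstm7, mu-class transferases that act on electrophiles in the cytosol, were called at both steps in opposite directions. Gstm6 read -2.43, -2.50, -2.09, -2.61 and -2.44 in NC1, -0.71, -1.35, -0.85, -1.44 and -0.69 in C1, and -1.34, -1.58, -1.81, -1.89 and -1.91 in C2. Its C1 arrays were all above the NC1 arrays and overlapped the C2 arrays by their lowest values, with an increase of 1.41 ± 0.17 (adjusted p = 5.12e-05) and then a decrease of -0.70 ± 0.17 (adjusted p = 0.00162). Gstm7 read -3.87, -3.57, -4.10, -3.65 and -3.29 in NC1, -2.17, -2.28, -2.71, -2.99 and -1.95 in C1, and -3.90, -3.94, -4.23, -3.91 and -4.25 in C2, where 4 of 5 arrays were well above background. It was highest in C1 without overlap, rising by 1.28 ± 0.19 (adjusted p = 0.000437) and falling by -1.62 ± 0.19 (adjusted p = 1.41e-06), and the difference between NC1 and C2 was not called (-0.35 ± 0.19, adjusted p = 0.117). The decrease of Gstm6 lost its call with the deposited scaling and with spike-in scaling. These genes neighbour each other in the mouse Gstm cluster on chromosome 3, and probes to such near-identical sequences can share target, so single members are uncertain.

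**Figure D2:**
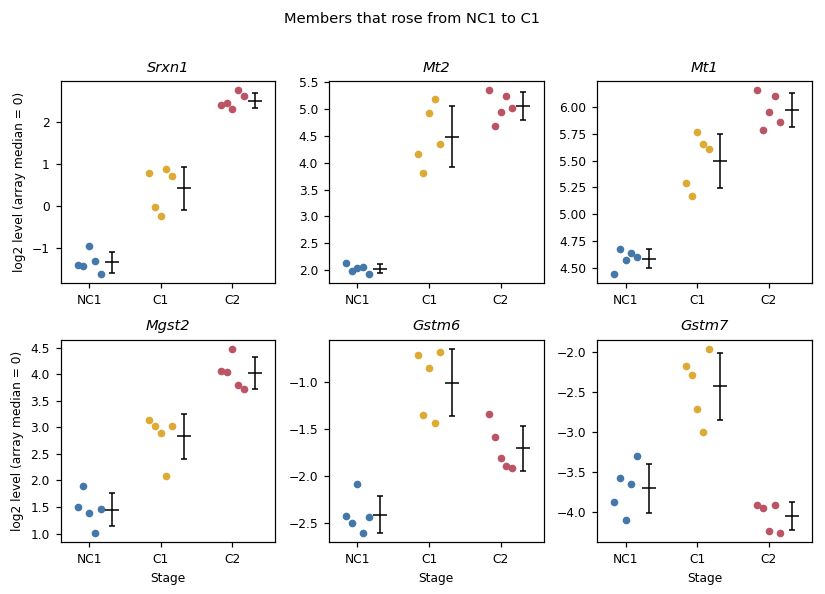
Log2 level of the 6 members called between NC1 and C1 (y axis, array median at 0, each panel with its own scale) for the 5 arrays of each stage (x axis), with the mean ± SD in black. Srxn1, Mt1 and Mgst2 climb in both steps, Mt2 rises mainly from NC1 to C1, and Gstm6 and Gstm7 peak in C1.

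For all 6 members every C1 array was above every NC1 array, so the same order within each of the 4 slides was certain and adds no support. The differences within slides were 1.22 to 2.13 for Srxn1, 1.85 to 3.15 for Mt2, 0.79 to 1.15 for Mt1 and 0.70 to 1.65 for Mgst2. By limma no member was called lower at this step (0 of 53, beside 0.768% of all probes). With so small a share, the count of 0 is no result about the members. At an unadjusted p under 0.05, 16 were higher and 4 lower. Leaving out each array in turn gave 6 to 8 calls. The hemoglobin transcripts moved the other way (above), while the leukocyte marker Cd52 was called higher (1.20, adjusted p = 0.00366) and C1qa stood at 1.39 (adjusted p = 0.0163, not called). The part of either cell type in these results was not tested.

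Promoter sequence is shown for 4 of the members called higher at one step or both, because they hold letters known as binding motifs of the NRF2 and small MAF proteins (TGANTCAGC) or of the metal-sensing factor MTF1 (core TGCACNC or TGCGCNC). Each window is the 250 bases before the RefSeq transcription start in GRCm38.p6, 5′ to 3′ on the gene's strand, and capitals mark matches on either strand. The windows are Srxn1, chr2:152105274-152105523 (+), Prdx1, chr4:116685349-116685598 (+), Mt1, chr8:94178839-94179088 (+), and Mt2, chr8:94172368-94172617 (+), the last pair being neighbours.
Srxn1: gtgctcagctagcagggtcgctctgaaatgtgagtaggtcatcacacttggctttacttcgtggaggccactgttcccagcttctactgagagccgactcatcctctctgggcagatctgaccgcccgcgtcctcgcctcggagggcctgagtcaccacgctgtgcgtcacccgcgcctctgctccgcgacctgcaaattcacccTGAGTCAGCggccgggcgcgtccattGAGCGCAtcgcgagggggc
Prdx1: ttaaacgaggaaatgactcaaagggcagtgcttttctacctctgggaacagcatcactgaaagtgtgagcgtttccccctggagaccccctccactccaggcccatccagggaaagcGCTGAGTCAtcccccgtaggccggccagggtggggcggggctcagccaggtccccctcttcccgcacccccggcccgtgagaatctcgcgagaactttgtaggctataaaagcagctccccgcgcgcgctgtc
Mt1: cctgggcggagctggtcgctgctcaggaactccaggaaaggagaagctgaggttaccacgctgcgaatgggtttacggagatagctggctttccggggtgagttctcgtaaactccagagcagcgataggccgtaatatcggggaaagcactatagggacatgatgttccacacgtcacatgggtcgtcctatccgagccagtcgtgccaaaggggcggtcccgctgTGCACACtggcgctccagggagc
Mt2: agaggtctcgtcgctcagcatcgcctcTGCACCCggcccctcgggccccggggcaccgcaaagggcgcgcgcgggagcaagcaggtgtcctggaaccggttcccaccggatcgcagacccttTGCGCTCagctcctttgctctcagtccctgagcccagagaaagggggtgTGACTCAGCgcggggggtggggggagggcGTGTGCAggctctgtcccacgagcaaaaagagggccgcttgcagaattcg
In Srxn1 the match TGAGTCAGC starts 45 bases before the start site, and a metal-element core on the other strand lies between it and the start. In Prdx1 the capitals GCTGAGTCA are the same motif on the other strand. The Mt2 window has 1 such match (TGACTCAGC) and 3 metal-element cores, the one nearest the start site on the other strand, and the Mt1 window has 1 core. Bases outside these windows were not searched, so the counts are not of whole promoters. Windows were found for 46 of the 54 members. The motif TGANTCAGC was in 5 of them (Gstp1, Gstp2, Mt2, Prdx1 and Srxn1), beside 1.17% of 27025 genes. The antioxidant element core TGACNNNGC, which also matches the TGACTCAGC of Mt2, was in 10 of 46, beside 11.5% of genes, and the metal-element core in 15 of 46, beside 23.8%. By direction from C1 to C2, TGACNNNGC was in 3 of 12 members called higher and 3 of 15 called lower, and TGANTCAGC in 2 of 12 and 0 of 15. The metal-element core was in 2 of 12 called higher and 5 of 15 called lower. A match describes letters and is not a measured binding site.

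From C1 to C2 the genes of glutathione synthesis and recycling moved apart. Gss, the second enzyme of synthesis, read -0.34, -0.34, -0.53, -0.50 and 0.02 in C1 and 1.51, 1.69, 1.60, 1.64 and 1.34 in C2, after -0.82, -0.55, -0.94, -0.56 and -0.60 in NC1. All C2 arrays were above all others, and Gss rose by 1.89 ± 0.12 (3.72-fold, adjusted p = 1.63e-09). Gsr, which regenerates reduced glutathione, read 2.86, 2.40, 2.99, 3.29 and 3.19 in C1 and 5.02, 4.43, 4.17, 4.44 and 4.48 in C2. It rose by 1.56 ± 0.20 (2.96-fold, adjusted p = 3.74e-06), again without overlap, while its NC1 arrays (2.65 to 3.50) overlapped those of C1.

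Gclc, the catalytic subunit of the rate-limiting ligase, read 0.68, 0.80, 0.49, 1.24 and 0.19 in C1 and -0.98, -0.80, -0.13, 0.31 and 0.21 in C2. The C2 arrays were widely spread and the upper ones overlapped C1. Gclc fell by 0.96 on the log2 scale (SE 0.24, adjusted p = 0.00262), a call that was lost with the deposited scaling (-0.65) and without the filter on dim probes. Its partner Gclm read -4.07, -3.37, -2.77, -3.03 and -3.21 in C1 and -4.25, -4.09, -3.53, -3.79 and -3.92 in C2, and the change of -0.62 ± 0.21 was not called (adjusted p = 0.0171), though it became a call with slide as a fixed block (-0.70) and without C1 replicate 1 or C2 replicate 3. Against NC1, both ligase subunits were called lower in C2, by -0.998 ± 0.24 for Gclc (adjusted p = 0.00175) and -0.76 ± 0.21 for Gclm (adjusted p = 0.00445). The first of these was lost with the deposited scaling (-0.80), and the second in 10 of 26 alternatives (-0.45 to -0.87 over all 26), among them the deposited, quantile and spike-in scalings and the fits without C2 replicate 1 or 2 or NC1 replicate 2 or 5. Glrx, a glutaredoxin that removes glutathione from proteins, was called only in the widest comparison (C2 against NC1, 0.72 ± 0.17, adjusted p = 0.00137), and not with spike-in scaling.

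**Figure D3:**
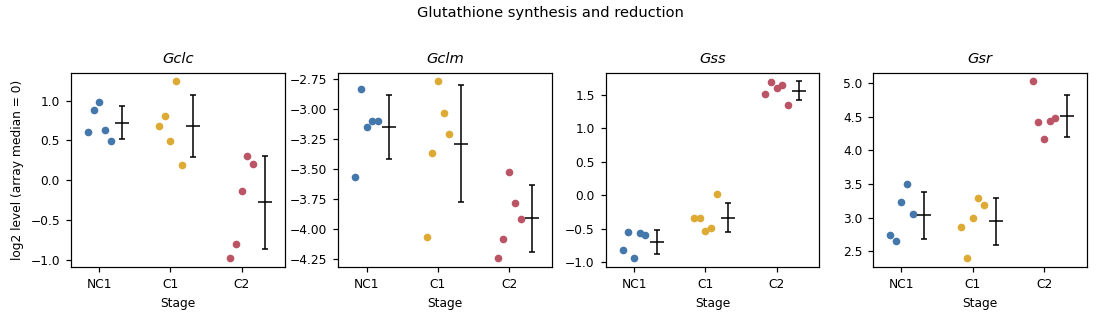
Log2 level of Gclc, Gclm, Gss and Gsr (y axis, array median at 0, each panel with its own scale) for the 5 arrays of each stage (x axis), with the mean ± SD in black. The C2 arrays of Gss and Gsr lie above all NC1 and C1 arrays, and those of Gclc and Gclm overlap C1.

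Among the 17 tested soluble transferases, 11 were called lower and 1 higher from C1 to C2, with a median change of -1.16. Of all probes, 22.2% were called lower and 25.4% higher. Of the 11, 6 were neighbouring mu-class genes whose probes can share target (above), so the 11 are not separate observations. The theta, alpha and mu classes held most of the decreases. Gstt1, a theta-class enzyme acting on small halogenated compounds and peroxides, read 0.22, -0.24, 0.19, 0.17 and 0.25 in C1 and -3.03, -3.59, -3.45, -3.59 and -3.86 in C2. This was the largest decrease of the members, -3.62 ± 0.14 (12.3-fold, adjusted p = 6.59e-12). Its neighbour Gstt3 was lower by -1.39 ± 0.15 and Gstt2 was not called (-0.33 ± 0.11, adjusted p = 0.0134).

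Gsta4, the alpha-class enzyme that conjugates the lipid peroxidation product 4-hydroxynonenal, read -1.33, -0.92, -0.88, -0.89 and -0.81 in NC1, -0.38, -0.45, -0.61, 0.33 and -0.08 in C1 and -2.85, -3.02, -3.31, -2.98 and -3.14 in C2. The C1 arrays were the highest of the 3 stages without overlap. The first change was 0.72 ± 0.16 (adjusted p = 0.0123, not called) and the second was a fall of -2.82 ± 0.16 (7.07-fold, adjusted p = 4.26e-10). Gsta3, known in other tissues for steroid isomerase activity, read -1.39, -1.08, -0.32, -1.48 and -0.69 in C1 and -2.99, -2.93, -3.08, -1.70 and -2.02 in C2, a fall of -1.55 ± 0.27 (adjusted p = 9.52e-05) that its second probe shared (-1.45). Gsta2 had the same change of -1.55 but was not called (SE 0.52, adjusted p = 0.0168), as 1 C1 array read 0.76 and the other 4 between -3.18 and -1.84.

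Of the 7 mu-class genes 6 were called lower, by -0.70 to -1.62, and Gstm4 was not (-0.00 ± 0.22, adjusted p = 0.992). The call of Gstm5 (-0.92 ± 0.13) was lost with the deposited scaling (-0.61). Gstm2 had 3 probes, with changes of -1.32, -1.40 and -1.33, all called. The zeta-class Gstz1, an enzyme of tyrosine breakdown, was lower by -0.57 ± 0.15 (adjusted p = 0.00346), a call lost in 8 of 26 alternatives (-0.26 to -0.72), among them those without C1 replicate 2 or 3 or C2 replicate 4 or 5. The pi-class genes Gstp1 and Gstp2 were not called (0.26 ± 0.18 and 0.26 ± 0.13). The only soluble transferase called higher was Gsto1, an omega-class enzyme with glutaredoxin-like and dehydroascorbate reductase activity, by 0.90 ± 0.11 (1.87-fold, adjusted p = 1.68e-06), a call lost with spike-in scaling. Its neighbour Gsto2 was the member that failed the filter. It was well above background on 5 of 5 arrays in NC1 and in C1 and on 2 of 5 in C2, and read -3.21, -2.75, -3.08, -3.67 and -2.72, then -2.55, -3.17, -2.82, -3.69 and -3.11, then -4.77, -4.79, -4.74, -5.98 and -5.14, with no test.

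All 3 membrane transferases were called from C1 to C2. Mgst1, which also has peroxidase activity in the endoplasmic reticulum and outer mitochondrial membrane, read 4.14, 4.54, 4.32, 4.74 and 4.16 in C1 and 5.80, 5.36, 5.43, 5.63 and 5.50 in C2. It rose by 1.16 ± 0.13 (2.24-fold, adjusted p = 6.71e-07), as Mgst2 did (above), whereas Mgst3 fell by 1.43 on the log2 scale (SE 0.16, adjusted p = 1.12e-06).

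The 6 glutathione peroxidases gave 3 decreases and no increase from C1 to C2, beside 22.2% of all probes called lower and 25.4% higher. At an unadjusted p under 0.05 there was no increase either (0 of 6). Gpx7, a peroxidase of the endoplasmic reticulum, read 2.75, 2.30, 3.37, 3.26 and 2.93 in NC1, 2.26, 2.64, 2.66, 2.20 and 2.31 in C1 and 0.41, 0.29, 0.30, 0.69 and 0.58 in C2. It fell by 1.96 on the log2 scale from C1 to C2 (SE 0.18, 3.88-fold, adjusted p = 8.46e-08). Gpx8, of the same compartment, was lower by -1.09 ± 0.14 (adjusted p = 3.60e-06), and Gpx2 by -0.51 ± 0.14 (adjusted p = 0.00628), a call lost in 14 of 26 alternatives (-0.20 to -0.66), among them the removal of any 1 of 7 arrays. Gpx1, the main cytosolic enzyme, read 3.84, 3.64, 3.66, 3.62 and 3.83 in C1 and 3.85, 3.77, 3.79, 3.95 and 3.70 in C2, a change of 0.09 ± 0.10 (adjusted p = 0.444). Gpx4, which reduces lipid hydroperoxides in membranes, read 4.15, 4.01, 4.00, 4.05 and 4.29 in C1 and 4.19, 3.77, 3.88, 3.93 and 3.74 in C2 (-0.20 ± 0.11, adjusted p = 0.137). Both genes overlapped between the stages. The secreted Gpx3 read 0.76, 0.84, 0.55, 0.95 and 0.72 in NC1, 1.43, 1.24, 0.59, 1.37 and 1.84 in C1 and 1.01, 1.18, 1.29, 1.01 and 1.08 in C2. Its changes were 0.53 ± 0.17 from NC1 to C1 (adjusted p = 0.0957) and -0.18 ± 0.17 from C1 to C2 (adjusted p = 0.387). Leaving out C1 replicate 3, whose Gpx3 level of 0.59 was the lowest of C1, the first of these became a call at 0.70.

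The peroxiredoxins divided, with 3 called higher, 3 called lower and mitochondrial Prdx3 not called (0.12 ± 0.12). Prdx5, found in mitochondria, peroxisomes and cytosol, read 1.35, 1.04, 0.96, 1.56 and 1.67 in C1 and 2.76, 2.54, 2.34, 2.59 and 2.31 in C2, a rise of 1.19 ± 0.16 (2.29-fold, adjusted p = 7.11e-06) without overlap. The cytosolic Prdx1 and Prdx2 rose by 0.58 ± 0.16 (adjusted p = 0.00512) and 0.40 ± 0.11 (adjusted p = 0.0061). Both calls were lost with quantile scaling, with spike-in scaling, without the filter on dim probes, and without any 1 of 5 arrays each (C1 replicates 4 and 5 and C2 replicates 1, 3 and 4 for Prdx1, C1 replicates 1, 2 and 5 and C2 replicates 1 and 4 for Prdx2), with values of 0.38 to 0.89 and 0.20 to 0.71 over all alternatives. The second probe of Prdx1 was not called (0.38, adjusted p = 0.0212). Prdx4, the peroxiredoxin of the endoplasmic reticulum, read 3.87, 4.31, 4.34, 4.02 and 3.93 in C1 and 2.81, 2.42, 2.58, 3.23 and 3.05 in C2, lower by -1.27 ± 0.16 (2.42-fold, adjusted p = 3.20e-06). Prdx6, a 1-cysteine enzyme that uses glutathione, read 4.28, 4.24, 4.11, 4.02 and 4.19 in C1 and 3.38, 3.48, 3.52, 3.45 and 3.54 in C2, a fall of -0.69 ± 0.09 (1.62-fold, adjusted p = 8.02e-06) shared by all 3 of its probes and lost with the deposited and with spike-in scaling. The related sequence Prdx6-rs2 was lower by -0.89 ± 0.15, a call lost with the deposited scaling, and its probe may share target with Prdx6. Array values of Prdx4, as of Gsto2 above, are given by a choice made after the values were seen.

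In the thioredoxin system, Srxn1 (above) and Txn1 were higher in C2. Txn1, the cytosolic thioredoxin that reduces peroxiredoxins, read 3.14, 3.09, 3.65, 3.10 and 2.93 in C1 and 4.02, 4.02, 4.49, 4.68 and 4.50 in C2, a rise of 1.16 ± 0.16 (2.23-fold, adjusted p = 1.14e-05) without overlap. Mitochondrial Txn2 and the 3 thioredoxin reductases Txnrd1, Txnrd2 and Txnrd3, which recycle thioredoxin with NADPH, were not called (-0.13 ± 0.08, -0.19 ± 0.18, -0.31 ± 0.11 and 0.35 ± 0.12).

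Of the superoxide dismutases only the secreted form was called. Sod3 read 0.31, -0.19, 0.19, 0.01 and -0.19 in NC1, 0.08, -0.05, 0.39, 0.22 and 0.71 in C1 and -2.68, -2.95, -3.17, -3.15 and -3.76 in C2. The C2 arrays lay far below all others, and Sod3 fell by 3.41 on the log2 scale from C1 to C2 (SE 0.18, 10.6-fold, adjusted p = 2.51e-10). Cytosolic Sod1 read 6.03, 5.97, 5.89, 6.08 and 5.92 in C1 and 6.18, 5.77, 5.86, 5.95 and 5.86 in C2 (-0.06 ± 0.10, adjusted p = 0.664). The 2 stages overlapped. Mitochondrial Sod2 read 4.28, 3.61, 3.70, 3.83 and 3.96 in C1 and 3.75, 3.61, 3.60, 3.77 and 3.67 in C2 (-0.19 ± 0.12, adjusted p = 0.175). Cat, the peroxisomal catalase, read -1.35, -1.27, -1.24, -1.36 and -1.44 in C1 and -1.40, -1.51, -1.48, -1.30 and -1.34 in C2 (-0.07 ± 0.10, adjusted p = 0.539), and neither gene separated the stages. The theca and stroma markers fell at the same step as Sod3, Gstt1 and Gsta4 (their summed levels are given above), and so did 5 of 6 granulosa markers. The part of either in these decreases was not tested.

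**Figure D4:**
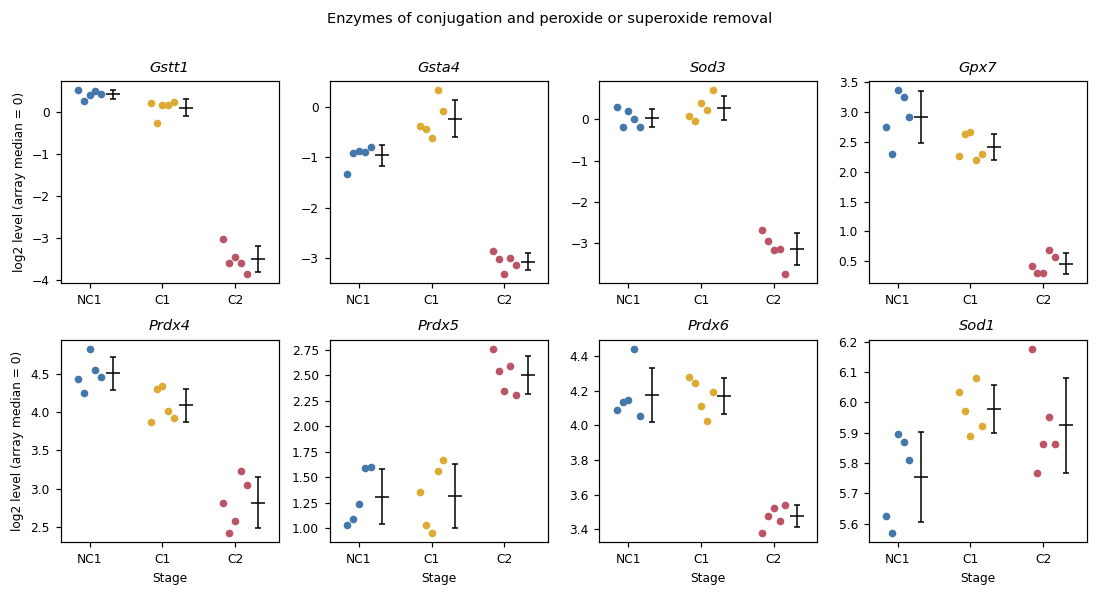
Log2 level of 8 members (y axis, array median at 0, each panel with its own scale) for the 5 arrays of each stage (x axis), with the mean ± SD in black. Gstt1, Gsta4, Sod3, Gpx7, Prdx4 and Prdx6 are lowest in C2, Prdx5 is highest there, and the stages of Sod1 overlap within a panel that spans less than 1 log2 unit.

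Hmox1, the inducible heme oxygenase, was the most variable of the members in NC1. It read 0.31, 0.10, -2.57, -0.50 and -1.46 in NC1, 1.42, 0.66, 0.94, -0.53 and 0.66 in C1 and 1.60, 1.33, 1.28, 2.18 and 2.09 in C2. The C2 arrays were all above the NC1 arrays and partly overlapped C1. Neither step was called (1.45 ± 0.46, adjusted p = 0.092, and 1.06 ± 0.46, adjusted p = 0.0599), while the whole change of 2.52 ± 0.46 was (5.72-fold, adjusted p = 0.000173). A second Hmox1 probe gave smaller changes, 0.41 from NC1 to C1 (adjusted p = 0.394), 0.79 from C1 to C2 (adjusted p = 0.00680, called) and 1.20 from NC1 to C2 (adjusted p = 0.000217, called). The constitutive Hmox2 rose by 0.61 ± 0.10 from C1 to C2 (adjusted p = 7.89e-05), a call lost with spike-in scaling. Nqo1, a quinone reductase and a standard NRF2 target, was no member, since its probe was well above background on 0, 1 and 3 of 5 arrays.

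Nfe2l2, which encodes NRF2, read 2.33, 2.06, 2.39, 2.08 and 2.00 in C1 and 2.29, 2.57, 2.92, 2.89 and 2.89 in C2. Apart from 1 low C2 array the C2 values were above C1, and the gene rose by 0.54 ± 0.13 (1.45-fold, adjusted p = 0.00225). On slide 4 the direction was opposite (-0.10, 1 array against 1), the sole exception among the 33 members called from C1 to C2 over the 4 slides. For members whose C1 and C2 arrays did not overlap, the direction within each slide was fixed in advance. The call of Nfe2l2 was lost with quantile and with spike-in scaling and without the filter on dim probes.

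Genes of the same pathways outside the members were counted from lists, to be read beside the 25.4% of all probes called higher and 22.2% called lower from C1 to C2. From NC1 to C1 these shares of all probes were 1.75% and 0.768%. Of 24 valid genes of NRF2 control and other NRF2 targets, 12 were called higher and 3 lower from C1 to C2 (2 higher from NC1 to C1). The largest increases were in the aldo-keto reductase Akr1b8 (3.51 ± 0.23) and the autophagy adaptor Sqstm1 (1.65 ± 0.28). The epoxide hydrolase Ephx1 (-2.84 ± 0.18) and the related factor Nfe2l1 (-0.75 ± 0.13) were lower. The 12 include regulators such as Cul3, Rbx1, Bach1 and Btrc as well as targets, so the count is no measure of NRF2 activity. Of 18 genes listed for NADPH supply and use, the cofactor of Gsr and the thioredoxin reductases, 5 were higher and 6 lower. Idh1 (2.07 ± 0.16) and Me1 (1.53 ± 0.14) were at one end and the malic enzymes Me3 (-3.28 ± 0.13) and Me2 (-1.77 ± 0.12) at the other. Idh1 and Me1, isocitrate dehydrogenase and malic enzyme, had also risen from NC1 to C1 (1.87 ± 0.16 and 1.74 ± 0.14), as had Fdxr, a reductase that uses NADPH (0.78 ± 0.15).

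Of 15 valid genes of glutathione turnover, cystine supply and export, 4 were higher and 6 lower in C2 than in C1. The glyoxalase Hagh (1.08 ± 0.11) and Slc3a2 (0.93 ± 0.11), a subunit of the cystine carrier and of other amino acid carriers, were higher. Slc7a11, the other subunit of the cystine carrier, was not among the 15 valid genes. Cbs, which starts the synthesis of cysteine from homocysteine, was lower by -3.82 ± 0.29, followed by the exporter Abcc3 (-1.71 ± 0.19). Among 27 thioredoxin-fold and selenoprotein genes, 5 were higher and 12 lower, with Selenom (1.43 ± 0.15) and the methionine sulfoxide reductase Msrb1 (1.02 ± 0.12) higher and the thioredoxin inhibitor Txnip (-2.45 ± 0.17) and the selenium carrier Selenop (-2.30 ± 0.18) lower. Of 12 genes that produce superoxide or peroxide, 5 were higher and 3 lower, with spermine oxidase Smox (1.93 ± 0.19) and monoamine oxidase Maoa (1.40 ± 0.23) against Pipox (-2.62 ± 0.23) and the endoplasmic reticulum oxidase Ero1b (-1.38 ± 0.16). Of 22 zinc and copper genes, 4 were higher and 9 lower, with the zinc exporter Slc30a4 (0.98 ± 0.13) and the metal-sensing factor Mtf1 (0.91 ± 0.12) against the copper pump Atp7a (-1.64 ± 0.13) and the zinc exporter Slc30a1 (-1.56 ± 0.18). From NC1 to C1, the step at which Mt1 and Mt2 rose, limma called 0 of these 22, beside 2.52% of all probes. With so small a share, a count of 0 among 22 genes is no result about them. At an unadjusted p under 0.05, 3 were higher and 1 lower.

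Where a member had further valid probes, 14 of 16 gave the same call as the chosen probe from C1 to C2. The exceptions were the second probes of Hmox1 and Prdx1. From NC1 to C1 all 16 were not called, as were their chosen probes. None of the 6 members called at that step had a further valid probe, so the 16 do not bear on those calls. Array number limits the precision of all values, and the pools of several mice hide the spread between single animals.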

How the data were processed

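Cumulus cell RNA of 5 pools per stage (NC1, C1, C2) was hybridised to single-color Agilent mouse arrays. The authors deposited scanner files made with Agilent Feature Extraction (10.7.1.1 per the file headers), which hold background-subtracted intensity, and a table of log2 intensity centred on each array's median, used for choosing members and as an alternative. Here spots of a probe were averaged (outlier spots left out), log2-transformed without pseudocount, and centred on the array median over the 17323 probes well above background in at least 4 of 5 arrays of each stage. Stages were compared with limma 3.58.1 (R 4.3.3), 1 model over 15 arrays, two-sided, Benjamini-Hochberg over all valid probes, threshold 0.01. The study's methods name a one-factor ANOVA with this threshold on arrays scaled by their median, so the ANOVA was run as an alternative. The script was tested on simulated data. Members and lists were chosen with earlier results of these data known. Array values are printed for the members with the largest called changes, those called in opposite directions, a fixed set of central genes, and Prdx4 and Gsto2. Symbols came from RefSeq accessions (26055 probes) or the deposited table (2770), with 10604 unnamed. Alternatives were other scalings, normexp, filters, probes, thresholds, blocks and left-out arrays.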

Additional observations from a re-analysis of the deposited data

Results flagged for a closer look

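In 159 sets of 5 arrays (53 members in 3 stages), 11 had 1 array set apart from the other 4 by more than 0.71 of the whole range (Dixon's test), a distance that chance gives in about 1 set of 20. In NC1, replicate 4 was apart for Prdx1 (3.30, others 3.62 to 3.75), Prdx3 (0.92, others 1.09 to 1.13) and Prdx6 (4.44, others 4.06 to 4.15), replicate 1 for Gsta4 (-1.33, others -0.92 to -0.81) and replicate 5 for Gstm5 (1.93, others 1.41 to 1.54). In C1, replicate 2 was apart for Gpx8 (2.67, others 2.22 to 2.31) and Gstt1 (-0.24, others 0.17 to 0.25), replicate 3 for Txn1 (3.65, others 2.93 to 3.14) and replicate 4 for Mgst2 (2.08, others 2.89 to 3.13). In C2, replicate 1 was apart for Gpx2 (-2.24, others -2.68 to -2.63) and replicate 5 for Gstt2 (-1.39, others -1.21 to -1.15). Of the calls reported for these genes, leaving out each array in turn ended those of Prdx1 and Gpx2 from C1 to C2. The arrays whose removal did so were others than the flagged ones. Without NC1 replicate 4 the call of Prdx1 stayed, and without C2 replicate 1 that of Gpx2 stayed.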

How the results depend on the processing

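The direction of every called member was the same under all alternatives that tested it, in each of the 3 comparisons. Setting aside the 2-fold minimum and the looser threshold, 5 of 6 calls from NC1 to C1 held under every alternative in which the gene was tested, the exception being Mt1. Gstm7 was not tested among probes well above background on all arrays, which gave 5 calls. From C1 to C2, 20 of 33 calls held in the same sense, and from NC1 to C2, 22 of 37. A minimum change of 2-fold left 24 of 38 members over the 3 stages, 20 of 33 from C1 to C2 and 19 of 37 from NC1 to C2, since it removes smaller called changes by its construction. Spike-in scaling, which rests on 7 control probes, gave 24 from NC1 to C2, and the cause was not tested. Leaving out each array in turn gave 34 to 39 members over the 3 stages, 6 to 8 from NC1 to C1, 29 to 34 from C1 to C2 and 35 to 39 from NC1 to C2. Over all probes, the 437 calls from NC1 to C1 became 272 in the deposited table, 274 with spike-in scaling and 872 at an adjusted p of 0.05, and with spike-in scaling the 8931, 8253 and 8916 calls of the other comparisons became 5121, 4405 and 5157. The replicate block gave 38, 6, 35 and 37 members, with Gclm among those gained from C1 to C2. One-way ANOVA gave 36 members over the 3 stages. Replicate numbers are shared by the stages and were not used as pairs in the main fit. Of 15 same-numbered pairs 4 had deviations correlated above 0.1 (range -0.24 to 0.35), a spread that does not decide whether the arrays were paired. Slide as a random block had a consensus correlation of -0.03 and gave 37, 6, 33 and 37. Slide as a fixed block, an alternative chosen after seeing the data, gave 35, 6, 34 and 36. The normexp correction used median rather than mean spot signals and gave 36, 7, 32 and 35. Signal over background limits Gsto2 and the members near it in level, such as Gstm7. Gclm, Gstt1, Gsta2, Sod3 and Gsta4 were also dim in C2. Over the alternatives the change from C1 to C2 ranged from -2.91 to -3.77 for Gstt1 and from -2.70 to -3.56 for Sod3. For Gsta4 it ranged from -2.25 to -2.97, and none of these 3 calls was lost.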
